A study of Mus musculus with 31 samples.

Results

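The miRNAs mmu-miR-192-5p, mmu-miR-194-5p and mmu-miR-122-5p, written below without the mouse prefix, were followed in the lungs of smoke-exposed and control mice. These 3 of the 650 miRNAs on the array were chosen by name, as a pair encoded side by side and linked to p53 and as a hepatocyte miRNA. Earlier results of these data were known when they were chosen. Each has 2 probes of 10 spots, so 6 probes were read on all 31 arrays, and all 3 miRNAs were among the 273 that were tested. Lung tissue came from female BALB/c mice, an inbred strain, kept in cigarette smoke or in room air in a model of chronic obstructive pulmonary disease. The smoke groups hold 4 arrays at 4 weeks, 4 at 6 weeks, 4 at 8 weeks and 3 at 12 weeks. The control groups, in room air for the same times, hold 4 arrays each. Whole-lung total RNA carried a 3' Cy3 label and was read in a single colour on mouse miRNA arrays from Agilent. The sources used here give neither the age of the mice nor the amount of smoke. They also do not say if each array is another mouse, so a p-value here speaks only of the spread between samples, which could be technical.

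miR-122-5p is the most abundant miRNA of hepatocytes, where it takes part in the control of cholesterol and lipid metabolism, and it enters the blood when liver cells are damaged. The pair miR-192-5p and miR-194-5p is abundant in liver, intestine and kidney. They are cut from shared primary transcripts, and in human cells these transcripts are raised by p53, the transcription factor of the DNA damage response. In human myeloma cells miR-192, miR-194 and miR-215 were shown to repress MDM2, the ligase that removes p53. A miRNA binds its target mRNAs mainly through its seed, the bases 2 to 8 from the 5' end.

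The mature sequences below, with the seed in capitals, show which of these miRNAs share a seed and so could share targets. Likeness over the whole length bears on whether they could cross-hybridise. The sequences were taken from RefSeq on build GRCm38.p6 and cover 2 of the 3 miRNAs, as none is printed for miR-122-5p. miR-215-5p is shown because it is the neighbour of a miR-194 gene, and miR-34a-5p because it is the p53 target set beside them further on.
miR-192-5p: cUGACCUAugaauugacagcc
miR-215-5p: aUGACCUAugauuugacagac
miR-194-5p: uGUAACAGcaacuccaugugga
miR-34a-5p: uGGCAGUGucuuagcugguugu
miR-192-5p and miR-215-5p have the same seed and are identical at 18 of 21 positions. The seed of miR-194-5p is a different one, although its 2 genes neighbour theirs. The mature miR-192-5p lies at chr19:6264857-6264877 on the plus strand, in Mir192. A first copy of miR-194-5p, in Mir194-2, lies at chr19:6264658-6264679 on the plus strand, and the starts of these mature miRNAs are 199 bases apart. The second copy, in Mir194-1, lies at chr1:185313325-185313346 on the plus strand, 285 bases from the start of miR-215-5p at chr1:185313610-185313630, also on the plus strand. A probe for miR-194-5p cannot tell its copies apart. miR-34a-5p lies at chr4:150068473-150068494 on the plus strand, in Mir34a. miR-215-5p was not detected on any of the 31 arrays by either of its 2 probes.

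Levels are given as log2 of the background-subtracted signal divided by the array's 75th percentile, and called scaled signals. The 75th percentile, taken over 385 probes detected on all arrays, was 1201 to 2441 on the smoke arrays and 1018 to 3725 on the control arrays. All 9 miRNAs of a lung epithelial list and both strands of the endothelial miR-126 were measured, which goes with the lung label. The sample titled 12 weeks Smoke 3, here 12 weeks smoke array 3, stood apart for the 3 miRNAs described here. It also had 655 outlier spots, against 297 to 442 on the other 30 arrays. Its share of spots above background was not unusual, at 4282 spots against a range of 3936 to 5170. In all miRNAs together, smoke arrays 2 and 3 of 4 weeks had the highest scores on the leading component (9.12 and 4.84), which held 47.5% of the variance, and control array 4 of 4 weeks the lowest (-5.28). Results that rest on 12 weeks smoke array 3 are given with and without it.

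miR-122-5p was near background in all lungs but 1. On 12 weeks smoke array 3 its brighter probe gave a signal of 3978 and its other probe 2125. On the remaining 30 arrays the brighter probe reached at most 48.4, on 4 weeks smoke array 3, and the other probe at most 28.5. The 9 spots of the brighter probe on 12 weeks smoke array 3 ran from 3743 to 4303 with a coefficient of variation of 4.46%, so the value does not rest on a few spots. Put on the scaled log2 axis, the array stood at 1.57, and the next highest array lay 6.27 lower. The other 12 weeks smoke arrays had signals of 4.43 and 3.83, and the 12 weeks control arrays had -0.10, 3.40, 2.06 and 0.95. None of these 6 was well above background, so the difference is a lower bound: 12 weeks smoke array 3 was at least 380-fold above the other 12 weeks smoke arrays and at least 264-fold above the 12 weeks control arrays. For such a bound, each dim array is set to the lowest scaled signal of any probe that was above background on it.

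Among the other arrays, miR-122-5p was called above background more often after smoke. Without 12 weeks smoke array 3, the brighter probe was above background on 8 of 14 smoke arrays and on 2 of 16 control arrays; with it, smoke had 9 of 15. At 4 weeks it was above background on 4 of 4 smoke arrays, with signals of 23.8, 26.6, 48.4 and 20.6, against 1 of 4 control arrays, with signals of 10.4, 7.07, 3.69 and 20.8. The groups touch at 20.6 and 20.8. At 6 weeks the smoke arrays read 13.8, 7.72, 14.5 and 16.0, with 2 of 4 above background, and the control arrays read 7.93, 8.05, 5.38 and 2.92, with none of 4. At 8 weeks the smoke arrays read 7.14, 32.0, 10.1 and 26.3, with 2 of 4 above background, and the control arrays read 11.4, 19.1, 11.9 and 11.9, with 1 of 4. The ranges overlap at 6 and 8 weeks too, by these unscaled signals. Of 103 miRNAs detected on some arrays only, 28 had the larger share of detected arrays after smoke, and 3 of the 103, miR-122-5p among them, had an excess in smoke at least as large as its own. All 16 control arrays and 9 of 15 smoke arrays fell under the floor, a scaled log2 signal of -6.74, below which signals were not ordered. miR-122-5p entered the tests only through the 4 weeks smoke group, so its difference at 4 weeks is partly fixed by that entry. The detection counts over all durations, and the excess set against the 103 miRNAs, include those same 4 smoke arrays.

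**Figure D1:**
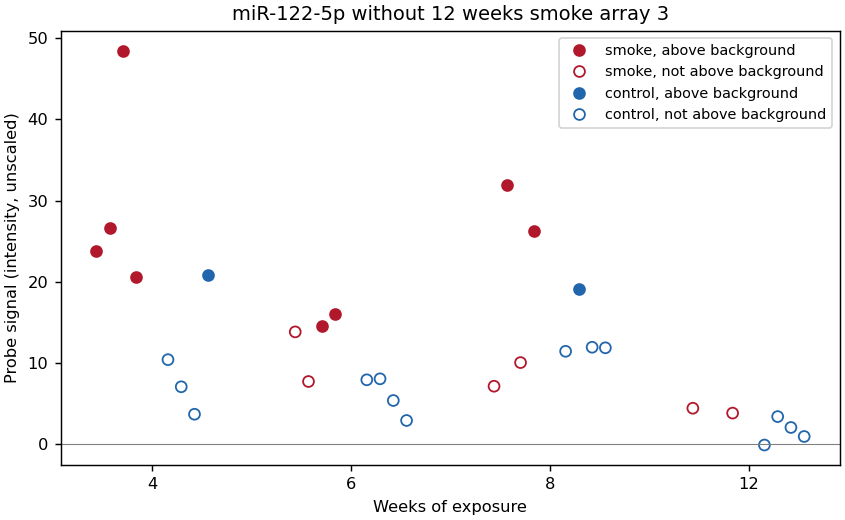
Unscaled signal of the brighter miR-122-5p probe (intensity, vertical axis) against weeks of exposure, for smoke arrays (red, left) and control arrays (blue, right) without 12 weeks smoke array 3, whose signal of 3978 would lie far off the axis. Each point is 1 array, filled where the probe was above background. The highest of them, 48.4, is on 4 weeks smoke array 3, and filled points are more frequent among smoke arrays.

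miR-192-5p and miR-194-5p were detected on all 31 arrays and were also highest on 12 weeks smoke array 3. The scaled log2 signal of miR-192-5p there was -1.60, while the other 30 arrays lay between -3.69 and -3.24. That is 3.21-fold above the other 12 weeks smoke arrays. miR-194-5p stood at -2.78, while the other 30 arrays lay between -4.25 and -3.63, and it was 2.21-fold above the other 12 weeks smoke arrays. The second probe of each gave nearly the same distance, 3.18-fold for miR-192-5p and 2.25-fold for miR-194-5p. Without scaling, the signal of miR-192-5p on that array, 443, was still above the highest other array, 312, whereas that of miR-194-5p, 196, was not above the highest other array, 220.

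The 3 miRNAs were the 3 of 273 that stood furthest above all other arrays on 12 weeks smoke array 3. They were chosen with earlier results of these data known, so this rank is a description and not independent of the choice. The distances to the highest other array were 6.27 log2 for miR-122-5p, 1.64 for miR-192-5p and 0.85 for miR-194-5p. The next was miR-326-3p at 0.24, followed by miR-212-3p at 0.06. In all, 8 of 273 miRNAs were highest on that array and none was below the lowest other array. The liver miRNA miR-802-5p was never called above background, but its 2 probes read 7.81 and 13.3 on that array, against at most 0.655 and 1.27 on the other 30. miR-148a-3p, which is abundant in liver and in many other tissues, was not highest there and lay 0.17 log2 above the other 12 weeks smoke arrays. The authors' deposited log2 table shows the same order, with distances to the highest other array of 6.16 for miR-122-5p, 1.42 for miR-192-5p and 0.615 for miR-194-5p.

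**Figure D2:**
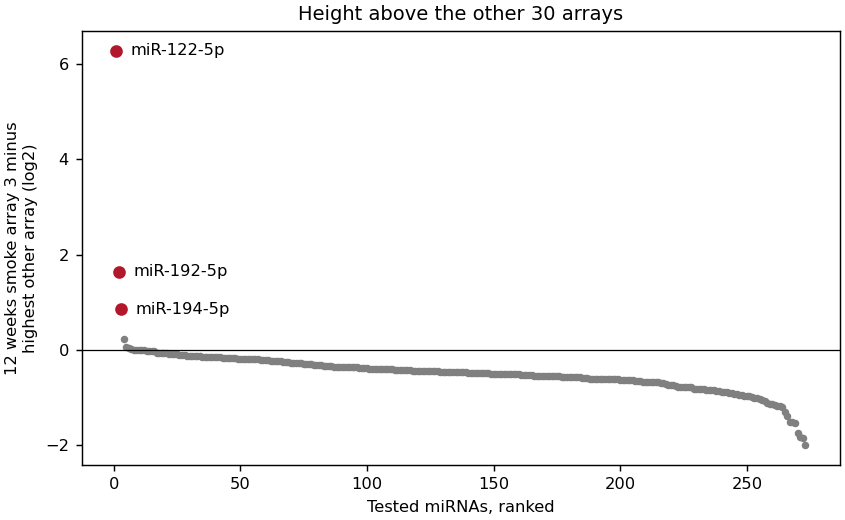
Scaled signal on 12 weeks smoke array 3 minus that on the highest of the other 30 arrays (log2, vertical axis), for the 273 tested miRNAs ranked by it. Each grey point is 1 miRNA, and the red points are miR-122-5p at 6.27, miR-192-5p at 1.64 and miR-194-5p at 0.85, above the next at 0.24.

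Markers of other tissues were summed on each array, as signals relative to the 75th percentile. The liver list (miR-122-5p, miR-192-5p, miR-194-5p, miR-802-5p and miR-148a-3p) summed to 3.95 on 12 weeks smoke array 3, against 0.534 to 0.675 on the other smoke arrays and 0.554 to 0.722 on the control arrays. That sum is carried by the 3 miRNAs already described: without them, what is left, nearly all miR-148a-3p, was 0.511 on that array, against 0.376 to 0.497 on the other smoke arrays and 0.403 to 0.559 on the control arrays. The intestinal list, which shares miR-192-5p and miR-194-5p with it, summed to 2.41, against 1.36 to 2.29 on the other smoke arrays and 1.50 to 2.22 on the control arrays, while its member miR-215-5p was not detected. The kidney list, which also holds them, lay inside the range of the other arrays at 3.24, against 2.28 to 4.51 on the other smoke arrays and 2.34 to 3.89 on the control arrays. These 2 sums are made mostly of 1 bright miRNA each, miR-200a-3p (1.77) in the intestinal and miR-10a-5p (2.74) in the kidney list, so they are not comparable with the liver sum. Without the shared pair they lay inside the range of the other arrays, at 1.93 for the intestinal and 2.76 for the kidney list. A longer list of liver-expressed miRNAs, with the 3 miRNAs taken out, summed to 19.1 on 12 weeks smoke array 3. The other smoke arrays had 15.9 to 18.2 and the control arrays 14.6 to 18.8. Its brightest miRNA was miR-22-3p, at 9.69 on that array. In the pancreas list 3 of 4 miRNAs were not detected on any array, and the sum of 0.134 lay inside the other smoke arrays' 0.103 to 0.203 and the control arrays' 0.108 to 0.146. The striated muscle, erythroid, leukocyte, endothelial, lung epithelial and neural lists also lay inside the range of the other 30 arrays. The part of RNA from another tissue in these values was not tested.

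**Figure D3:**
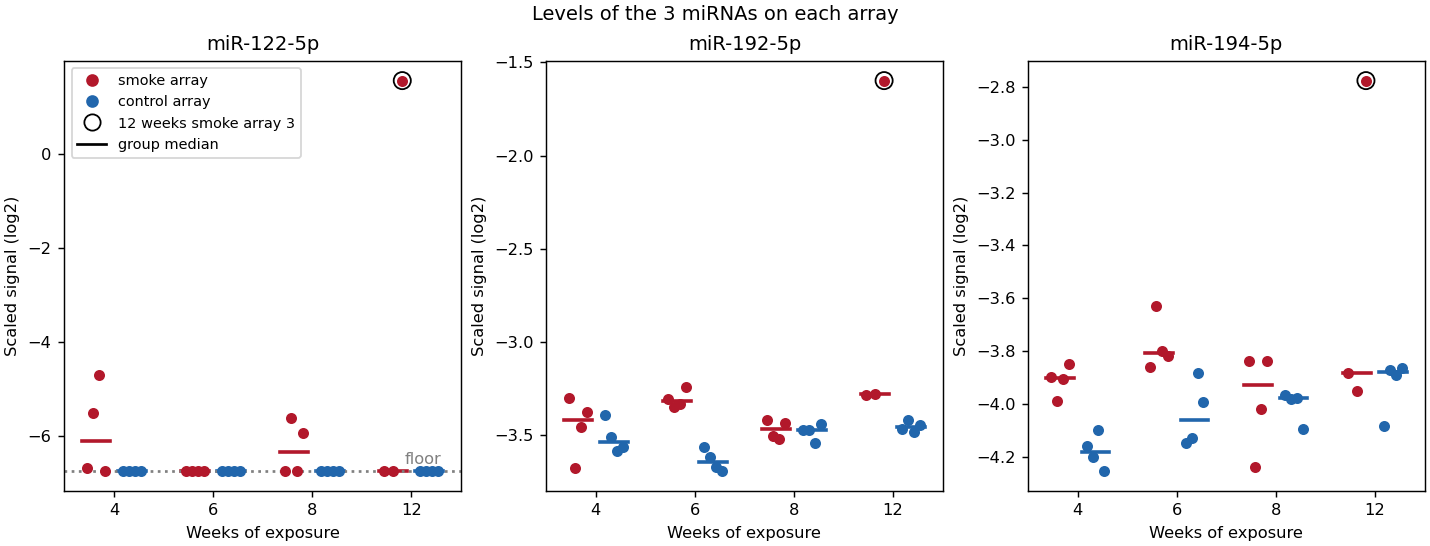
Scaled signal (log2) of each of the 3 miRNAs on every array against weeks of exposure, smoke arrays in red at the left and control arrays in blue at the right of each time. Points are arrays, short lines group medians, the dotted line the floor of -6.74, and the black ring 12 weeks smoke array 3, which is the highest array in each panel at 1.57, -1.60 and -2.78.

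The smoke and control groups of miR-192-5p separated at 6 and 12 weeks and overlapped at 4 and 8 weeks. At 4 weeks its scaled log2 signals were -3.30, -3.68, -3.46 and -3.37 on smoke arrays, against -3.39, -3.51, -3.58 and -3.56 on control arrays. The 4 weeks smoke arrays include both the lowest and the highest of these 8, so the groups overlap. At 6 weeks the signals were -3.31, -3.35, -3.33 and -3.24 on smoke arrays, against -3.56, -3.62, -3.67 and -3.69 on control arrays. All smoke arrays lay above all control arrays, as they did for 15.8% of the 273 miRNAs at 6 weeks. For 8 weeks the signals were -3.42, -3.50, -3.52 and -3.43 on smoke arrays, against -3.47, -3.47, -3.54 and -3.44 on control arrays, and the groups overlap. At 8 weeks none of the 3 miRNAs had every smoke array above every control array, a separation found for 4.76% of all miRNAs. For 12 weeks they were -3.29, -3.28 and -1.60 on smoke arrays, against -3.46, -3.42, -3.48 and -3.44 on control arrays. Here too every smoke array lay above every control array, with or without array 3, which was the case for 16.5% of the miRNAs at 12 weeks over all arrays. Ordered by mean, the groups without array 3 run from 12 weeks smoke (-3.28 ± 0.0044, SD, n = 2) and 6 weeks smoke (-3.31 ± 0.047, SD, n = 4) down to 6 weeks control (-3.64 ± 0.058, SD, n = 4). Of the 7 neighbouring pairs in that order, 6 overlap, and the gap that separates the ranges is the one between 6 weeks smoke and 12 weeks control.

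miR-194-5p was higher in smoke at 4 and 6 weeks on every array. At 4 weeks its scaled log2 signals were -3.90, -3.99, -3.91 and -3.85 on smoke arrays, against -4.16, -4.20, -4.10 and -4.25 on control arrays, so that the groups do not overlap. All smoke arrays were above all control arrays for 23.8% of the miRNAs at that time. At 6 weeks the signals were -3.86, -3.63, -3.80 and -3.82 on smoke arrays, against -4.15, -4.13, -3.88 and -3.99 on control arrays, and again no arrays overlap, although the closest values, -3.86 in smoke and -3.88 in control, nearly meet. Such a separation held for 15.8% of the miRNAs at 6 weeks. At 8 weeks they were -3.84, -4.24, -4.02 and -3.84 on smoke arrays, against -3.97, -3.98, -3.98 and -4.09 on control arrays, with smoke arrays both above and below the control arrays. For 12 weeks the smoke arrays read -3.88, -3.95 and -2.78, against -4.08, -3.87, -3.89 and -3.87 on control arrays, so that the groups overlap and only array 3 lies above all control arrays. Ordered by mean without array 3, the groups run from 6 weeks smoke (-3.78 ± 0.10, SD, n = 4) to 4 weeks control (-4.18 ± 0.066, SD, n = 4), and all 7 neighbouring pairs overlap.

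Averaged over the 4 durations, miR-192-5p and miR-194-5p were higher in smoke with and without 12 weeks smoke array 3, though not under every processing. With limma and Benjamini-Hochberg adjustment over the 273 miRNAs, miR-192-5p rose by 0.28 ± 0.10 log2 (1.22-fold, adjusted p 0.0443) and miR-194-5p by 0.23 ± 0.08 log2 (1.18-fold, adjusted p 0.0246) over all arrays (SE, 15 smoke and 16 control arrays). These 2 of 3 passed, beside 27.8% of all 273 miRNAs. Without array 3 the differences were 0.14 ± 0.03 log2 for miR-192-5p (1.10-fold, adjusted p 0.00109) and 0.14 ± 0.04 log2 for miR-194-5p (1.10-fold, adjusted p 0.0126), so leaving out the array made both differences smaller and both adjusted p-values lower. The background was then 28.2%. Without array 3, 8 of 14 smoke arrays were above every control array for miR-192-5p and 7 of 14 for miR-194-5p. The call for miR-192-5p over all arrays was also lost when any of 22 of the 31 arrays was left out, with adjusted p-values up to 0.0624, and with the slide as a block (adjusted p 0.0509). Without scaling, with normexp background correction and with the scanner's summed signal both lost their call with and without array 3. With normexp miR-194-5p turned to -0.022 log2 over all arrays, and without array 3 both turned negative, to -0.084 log2 for miR-192-5p and -0.10 log2 for miR-194-5p.

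miR-122-5p had the fourth largest averaged difference of the 273, at 1.02 ± 0.51 log2, and did not pass (limma adjusted p 0.139). Without array 3 it was 0.33 ± 0.15 log2 (adjusted p 0.112) and ranked 39 of 273 by size. The interval of that smaller difference, 0.01 to 0.65 log2, is wide beside those of the other members, 0.08 to 0.21 for miR-192-5p and 0.05 to 0.23 for miR-194-5p. All 16 control arrays sit at the floor, so the size of this difference depends on where the floor lies. It passed without the floor, with the scanner's summed signal and in the authors' deposited table. In that table the averaged difference without array 3 was 0.69 log2 (adjusted p 0.00264). All these averages include the same smoke arrays that admitted miR-122-5p to the tests, so its passing is a description only. Leaving out the floor also orders the signals that lay under it.

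At single durations, which values passed depended on that array. Over all arrays, no member passed at 4, 6 or 8 weeks in limma, beside 39.6%, 8.06% and 11% of all miRNAs, and none had an unadjusted p under 0.05 there. At 12 weeks 1 of 3 passed, beside 9.52%: miR-192-5p, higher in smoke by 0.73 ± 0.22 log2 (limma adjusted p 0.0348; 3 smoke and 4 control arrays). At the same duration miR-194-5p differed by 0.39 ± 0.17 log2 (adjusted p 0.127) and miR-122-5p by 2.77 ± 1.09 log2 (adjusted p 0.107). Without array 3 no member passed at 12 weeks, beside 10.3%, and 1 had an unadjusted p under 0.05: miR-192-5p then differed by 0.17 ± 0.07 log2 (adjusted p 0.120) and miR-194-5p by 0.01 ± 0.10 log2, while all remaining miR-122-5p values sat at the floor.

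Leaving out the array also lowered the estimated spread of all 3 miRNAs, and with it differences passed that had not. At 4 weeks miR-194-5p was higher in smoke by 0.27 ± 0.08 log2 (limma adjusted p 0.0154), where 39.2% of all miRNAs passed. The 4 weeks difference of miR-122-5p, 0.84 log2, is a description only, because the same smoke arrays admitted it to the tests and all 4 control arrays sit at the floor. The median over all 273 at 4 weeks was itself 0.17 log2 above 0. With smoke arrays 2 and 3 of 4 weeks left out, over the remaining 29 arrays, the 4 weeks difference of miR-122-5p was 0.03 log2 and that of miR-194-5p 0.30 log2. At 6 weeks miR-192-5p was higher by 0.33 ± 0.06 log2 (1.26-fold, adjusted p 0.000429) and miR-194-5p by 0.26 ± 0.08 log2 (1.20-fold, adjusted p 0.0354), so 2 of 3 passed beside 9.16%, and the median over all 273 was 0.01 log2. At 8 weeks none passed, beside 11.4%, and none had an unadjusted p under 0.05, with differences of 0.01 ± 0.06 log2 for miR-192-5p and 0.02 ± 0.08 log2 for miR-194-5p.

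**Figure D4:**
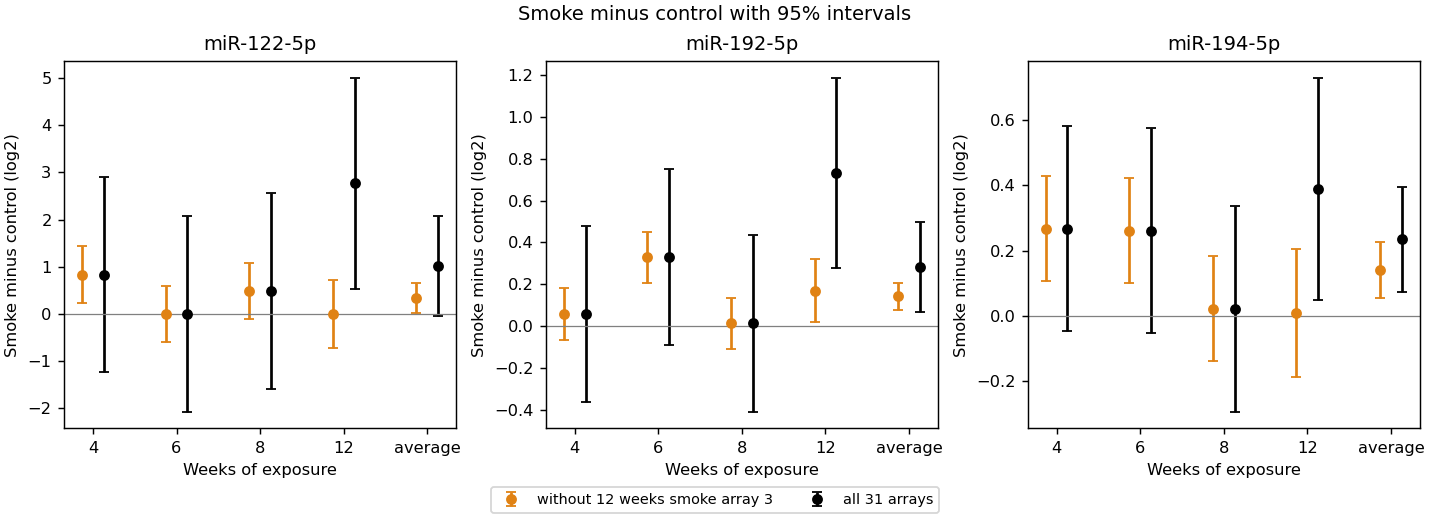
Smoke minus control (log2, vertical axis) at each duration and averaged over the durations, in a panel for each miRNA. Points are limma estimates and bars 95% intervals, orange without 12 weeks smoke array 3 and black with all 31 arrays; without it the intervals are narrower, and the 12 weeks difference of miR-192-5p is 0.17 in place of 0.73.

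Whether the smoke difference changes with duration was tested across the 4 durations. Over all arrays no member passed the moderated F test of limma, beside 7.33% of all miRNAs, and none had an unadjusted p under 0.05, with adjusted p-values of 0.375 for miR-122-5p, 0.194 for miR-192-5p and 0.495 for miR-194-5p. Without array 3 miR-192-5p passed (adjusted p 0.0462), beside 11%, with its largest difference at 6 weeks and its smallest at 8 weeks, whereas miR-194-5p did not (adjusted p 0.125). The control groups were compared between durations in the same fit, so the spread came from all arrays, smoke included. No member passed the F test there, beside 6.96%, and none had an unadjusted p under 0.05. The adjusted p-values were 1 for miR-122-5p, whose controls are all at the floor, 0.884 for miR-192-5p and 0.549 for miR-194-5p. Without array 3 the control values are the same, but the estimated spread is smaller. These control comparisons then gave 0.126 for both miR-192-5p and miR-194-5p, with unadjusted p-values of 0.0256 and 0.0277, beside 6.23%.

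Each slide carries smoke and control arrays of the same duration, so they could be set against each other within a slide, in 15 pairs. miR-192-5p was higher on the smoke array in 13 of 15 pairs, with differences from -0.17 to 1.85 log2 and a median of 0.13. miR-194-5p was higher in 11 of 15, from -0.26 to 1.09 log2 with a median of 0.19. For miR-122-5p 6 pairs were higher on the smoke array and 9 were equal at the floor. On slide 3, which carries 12 weeks smoke array 3, the mean difference of miR-192-5p was 0.58 log2 over 4 durations and 0.16 log2 over the other 3. On the other slides its means were 0.13, 0.07 and 0.22 log2. For miR-194-5p slide 3 gave 0.33 log2 and 0.08 log2 without that array, while slides 1, 2 and 4 gave 0.17, 0.10 and 0.28 log2. On every slide smoke arrays lie in the first line of positions and control arrays in the second, so position and smoke cannot be told apart. Each duration also has its own place along the lines, the same on every slide, so duration and that place cannot be told apart either.

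The correlation between miR-192-5p and miR-194-5p, whose genes lie side by side, was lower without that array. Across 31 arrays their scaled signals had a Pearson r of 0.87 and a Spearman rho of 0.65. Across the 30 arrays without array 3, r was 0.49 and rho 0.61, and the deviations from the group means had an r of 0.11. The r of miR-194-5p with miR-192-5p then ranked 72nd among those with all tested miRNAs. miR-122-5p and miR-192-5p had an r of 0.88 across 31 arrays and -0.17 across 30. These are descriptions across arrays that share the scaling of each array and the smoke and duration groups. Without array 3, the 5 miRNAs most like miR-192-5p were miR-141-5p (r 0.83), miR-34a-5p (0.82), miR-500-3p (0.81), miR-199a-5p (0.72) and miR-21-5p (0.70). The 5 most like miR-194-5p were miR-103-3p (0.77), miR-130b-3p (0.75), miR-182-5p (0.75), miR-7a-5p (0.74) and the cytomegalovirus miRNA miR-M23-1-5p (0.74).

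**Figure D5:**
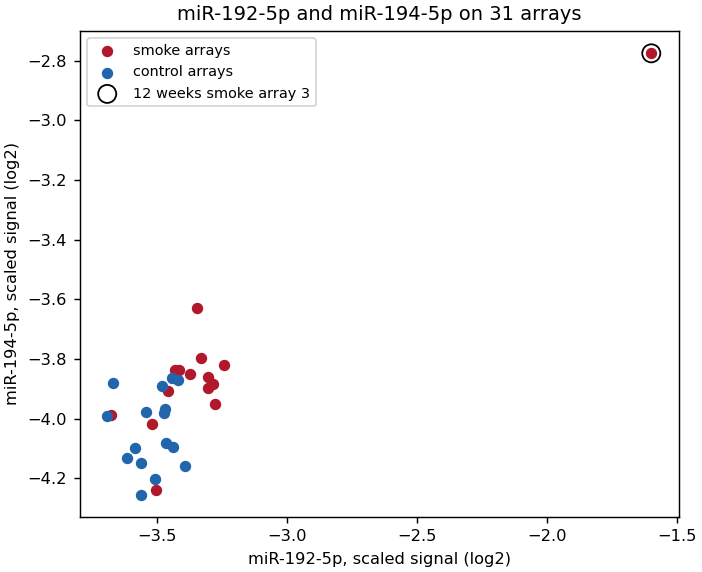
Scaled signal of miR-194-5p (log2, vertical axis) against that of miR-192-5p (log2, horizontal axis) on 31 arrays, smoke in red and control in blue. The ringed point is 12 weeks smoke array 3, at -1.60 and -2.78, apart from the other 30 arrays, over which r was 0.49.

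Among 13 p53-linked miRNAs, 12 were tested, and 3 rose and none fell in the averaged comparison, with and without array 3. Over all 273, 15.8% rose and 12.1% fell, while 14.7% rose and 13.6% fell without array 3. The 3 were miR-192-5p, miR-194-5p and miR-34a-5p, a direct p53 target that restrains the cell cycle, which rose by 0.67 ± 0.08 log2 (limma adjusted p 1.77e-07) over all arrays and by 0.71 ± 0.08 log2 (1.13e-07) without array 3. The list's median difference was 0.02 log2, beside -0.0048 log2 for all 273. Unlike the 3 miRNAs above, miR-34a-5p was 0.43 log2 lower on 12 weeks smoke array 3 than on the other 12 weeks smoke arrays. Its relatives miR-34b-5p and miR-34c-5p, which are abundant in ciliated cells, differed by -0.0036 ± 0.14 and -0.05 ± 0.09 log2 and did not pass.

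Of 10 liver-expressed miRNAs on the array, 9 were tested, and 3 rose and none fell, with and without array 3, where the shares over all 273 are the 15.8% and 12.1% (14.7% and 13.6% without array 3) given above. 2 of the 3 are miR-192-5p and miR-194-5p themselves. The third beside miR-192-5p and miR-194-5p was miR-22-3p, a widely expressed miRNA, at 0.19 ± 0.05 log2 (limma adjusted p 0.00234) over all arrays and 0.17 ± 0.05 log2 (0.00680) without array 3. The liver list's median was 0.19 log2 over all arrays and 0.14 log2 without array 3, beside -0.0048 and -0.014 log2 for all 273. That list includes the 3 miRNAs followed here, all with positive differences. Its other tested miRNAs ran from -0.15 to 0.22 log2 over all arrays, with more below 0 than above. miR-378-3p (0.22 ± 0.10 log2, adjusted p 0.0891) and miR-148a-3p (-0.06 ± 0.04 log2, adjusted p 0.323) did not pass. Counts in the marker lists of other tissues and cells stand beside the same 15.8% that rose and 12.1% that fell over all 273, and the intestinal and kidney rises include the same miR-192-5p and miR-194-5p. The intestinal list had 3 rises among 4 tested, the third being miR-31-5p at 0.41 ± 0.05 log2 (adjusted p 1.26e-07). The kidney list had 2 rises and 1 fall among 4 tested, the fall being miR-204-5p. No miRNA passed in the lists of pancreas (1 tested), striated muscle (4), erythroid cells (2) and neural cells (1). The leukocyte list had 1 rise and 2 falls among 5, the endothelial list 1 fall among 2, and the lung epithelial list 2 rises among 9. In bulk lung, fewer cells of a type and less RNA per cell cannot be told apart, and the part of cell composition in these differences was not tested.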

How the data were processed

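Each array file holds spot intensity values that the scanner software, Feature Extraction 10.7.3.1, had background-subtracted and detrended, per the file headers, with no normalization between arrays. The authors' deposited series table holds log2 values of 650 miRNAs, whose normalization and centring the sources used here do not state, and served as an alternative. Per array, r with the scaled scanner values was 0.981 to 0.985, and medians were 2.71 to 2.85.

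Outlier spots were left out and the spots of a probe averaged. A probe was detected where 50% of its spots were above background. Arrays were divided by their 75th percentile over 385 probes detected on all arrays, floored at -6.74 log2 (the median over arrays of the lowest detected signal), and the brightest probe stood for a miRNA. Tested miRNAs were detected on 75% of arrays in at least 1 group. Differences were fitted in R 4.3.3 with limma 3.58.1, 1 mean per group over 31 arrays, adjusted by Benjamini-Hochberg, with a threshold of 0.05. The fit was tested on simulated data. Precision is limited by the number of arrays. Groups and replicate numbers came from the titles. The labels do not say that a number marks a shared animal or batch. It equals the slide on all arrays but the 12 weeks controls, so the slide was fitted as a block too. Same-numbered smoke and control deviations correlated at -0.21 to 0.41, with 7 of 15 pairs over 0.1, and the arrays were not treated as paired. The alternatives were other scalings, background corrections, floors, probe summaries, filters, blocks, array weights and left-out arrays. The header of the scanner files has no mean spot signal, so the normexp alternative used the median signal. The miRNAs, lists and naming rule (the 3 members, up to 4 related miRNAs per list, and the 5 most alike) were chosen with earlier results of these data known.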

Additional observations from a re-analysis of the deposited data

Results flagged for a closer look

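In 2 control groups 1 array lay apart from the others for miR-194-5p. Among the 4 control arrays of 8 weeks, array 4 was lowest at -4.09 log2, and the nearest was -3.98. Among the 4 control arrays of 12 weeks, array 1 was lowest at -4.08 log2, and the nearest was -3.89. In both, the gap was over Dixon's 95% critical value for 4 values, which chance passes in about 1 of 20 groups. The 12 weeks smoke group has 3 arrays and was not tested in this way, so 12 weeks smoke array 3, the most distant array for all 3 miRNAs, is described in the text above by its distance from the other 30. The reason for the low control values was not tested.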

How the results depend on the processing

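The averaged difference of miR-194-5p passed when any single array was left out (0.14 to 0.29 log2), that of miR-192-5p stayed positive (0.14 to 0.35), and that of miR-122-5p (0.33 to 1.37) passed only without 12 weeks smoke array 1 or 2. The miR-192-5p call held without 1 of 9 arrays (4 weeks control 1 or smoke 2, 6 weeks control 1 or smoke 2, 8 weeks smoke 2 or 3, or any 12 weeks smoke array) and was lost without any other. It was also lost with quantile scaling (0.23), no scaling (0.14), normexp (0.037), a floor 4 times higher and no detection filter (both 0.28), the summed signal (0.20) and the deposited table (0.22). The slide block ended it too (0.28, adjusted p 0.0509), as did the replicate block (0.28, adjusted p 0.0523); 12 of 31 arrays correlated best with their own number, and that block changed no other call. miR-194-5p lost its call with no scaling (0.088), normexp (-0.022), the summed signal (0.15) and no filter (0.23). miR-122-5p passed with no floor (2.42), the summed signal (1.92) and the deposited table (1.44). Its averages include the 4 weeks smoke arrays that admitted it to the tests. The median of all miRNAs moved to -0.15 with no scaling, -0.14 with normexp and -0.11 with the summed signal. The cause of these changes was not tested, except that no filter means more miRNAs to adjust over.

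With 12 weeks smoke array 3 also left out (settings chosen after seeing the data), miR-192-5p lost its call with all probes in the percentile (0.20), no scaling (0.041), normexp (-0.084) and the summed signal (0.063), and miR-194-5p with no scaling (0.038), normexp (-0.10) and the summed signal (0.059). miR-122-5p turned to -0.090 with normexp and passed with no floor (1.55), the summed signal (1.05) and the deposited table (0.69). These averages of miR-122-5p also include the smoke arrays that admitted it to the tests, so its passing is a description only.

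Members called at 4 weeks numbered 0, and 1 with array weights or with only that duration's arrays. At 6 weeks they were 0, then 2 and 1 under those settings. At 8 weeks they were 0, and 2, both lower, without scaling. At 12 weeks they were 1, becoming 2 with all probes in the percentile or no floor and 0 with no scaling, normexp, the higher floor, no filter or only that duration's arrays. Leaving out single arrays gave 0 to 2 at 4 and 6 weeks and 0 to 3 at 12 weeks. The 2 at 4 weeks came without 12 weeks smoke array 3 and include miR-122-5p. Its 4 weeks difference is a description only, because the same smoke arrays admitted it to the tests. At 12 weeks the count was 0 without any 1 of the 12 weeks control arrays or smoke array 3. It was 2 without smoke array 1 and 3 without smoke array 2. The F test over durations called 0, 2 without scaling, 1 with array weights and 0 to 1 with single arrays left out; that among controls called 0, and 1 with array weights.

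Small differences changed sign. At 4 weeks miR-192-5p was -0.041 with all probes, -0.029 with quantile scaling, -0.016 without scaling, -0.70 with normexp and -0.00020 with the summed signal, and normexp gave -0.88 for miR-122-5p and -0.68 for miR-194-5p, with a median of -0.76 over all miRNAs. At 8 weeks miR-192-5p was -0.81 without scaling and -0.032 with the summed signal, and -0.0069 to 0.031 with single arrays left out. miR-194-5p was -0.015 with quantile scaling, -0.80 without scaling, -0.021 with the summed signal, -0.030 in the deposited table, -0.15 with array weights and -0.028 to 0.11 with single arrays left out. Without scaling the median of all miRNAs at 8 weeks was -0.86. Signals near background limit miR-122-5p outside 12 weeks smoke array 3.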
